A study of Homo sapiens with 12 samples.

Results

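Expression of 7 genes that mark simple epithelium, of 10976 genes in the files, was followed in cerebral organoids (COs): the keratins *KRT8*, *KRT18* and *KRT19*, the adhesion molecule *EPCAM*, the transcription factor *ELF3*, the galectin *LGALS3* and the annexin *ANXA1*. They were taken by name, and all 7 had a row. COs are aggregates that self-organise from embryonic stem cells (ESCs) toward brain tissue, and here they were grown from H1, a human ESC line labelled WT, and from KO#2 and KO#10, H1 clones labelled as *c-JUN* knockouts that were made with CRISPR-Cas9. Each line gave 2 libraries on day 12 and 2 on day 24 of CO induction, 12 libraries in all, and each library held the total RNA of 3 to 4 pooled COs. All 3 lines went through the same induction of neural differentiation, and no other treatment is labelled. KO#2 and KO#10 are each 1 clone, and the labels do not say whether replicates 1 and 2 of a line came from separate inductions, so the p-values measure only the spread between these libraries, which may be technical.

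The values are whole-number scores per gene that the authors had already normalized, so that every library has a median of 17 and a highest score of 5585. The depth of the libraries is unknown, no counting interval can be given, and scores are not divided by gene length, so they are compared here between libraries and not between genes. Replicate libraries correlated across genes with r of 0.909 to 0.957. *JUN* did not check the labels: its score was 13 and 15 in the day 24 libraries labelled WT and 29 to 39 in the 4 labelled KO, a log2 difference of 1.25 ± 0.17 (SE, limma adjusted p = 0.0184). The paper reports loss of c-JUN protein in both clones by western blot. It also reports absent *c-JUN* mRNA by RT-qPCR in neural progenitor cells and COs. Those checks were not made on the libraries used here, so every direction below rests on their labels. The labels also give the tissue as embryonic stem cells, whereas the neural progenitor gene *PAX6* scored 34 to 112 over the 12 libraries.

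Keratins are the intermediate filament proteins of epithelia, and each filament pairs a type II keratin with a type I keratin. *KRT8* is the type II keratin of simple (single-layered) epithelium and *KRT18* its usual type I partner, while *KRT19* is a small type I keratin of simple and ductal epithelia. The pair is among the first keratins of the embryo and is present in ESCs, yolk sac and endoderm, and it is lost as the neural plate turns to other intermediate filaments such as vimentin and nestin. EPCAM joins epithelial cells and is abundant in pluripotent cells, ELF3 is an ETS-family transcription factor of epithelia, galectin-3 binds beta-galactosides on glycoproteins, and annexin A1 binds membrane phospholipids in the presence of calcium.

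The coordinates in the files, which fit GRCh38, put *KRT8* (ENSG00000170421) at chr12:52897187-52949954 on the minus strand and *KRT18* (ENSG00000111057) at chr12:52948871-52952906 on the plus strand. These neighbouring rows overlap by 1084 bases on opposite strands, and the sources used here do not say if reads were counted by strand. *KRT19* (ENSG00000171345) lies at chr17:41523617-41528308, minus strand, in another cluster. *EPCAM* (ENSG00000119888) is at chr2:47345158-47387601, *ELF3* (ENSG00000163435) at chr1:202007945-202017183, *LGALS3* (ENSG00000131981) at chr14:55124110-55145423 and *ANXA1* (ENSG00000135046) at chr9:73151865-73170393, all on the plus strand. GENCODE 29 names 50 pseudogenes after *KRT8*, 68 after *KRT18* and 5 after *KRT19*, none of which has a row in the files, so reads shared with these copies make the keratin scores uncertain. No other keratin gene has a row.

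Since the 7 genes moved together at day 24 (below), the RefSeq promoter windows (GRCh38.p14, 250 bases before to 50 after a start) are shown for the 4 with an entry. *KRT18*, *KRT19* and *EPCAM* had none. Capitals mark matches to any of 6 motifs searched on both strands: AP-1 (TGANTCA), the site of JUN dimers, CRE (TGACGTCA), TEAD (GGAATG), GRHL (AACCNGTT), the SP1 GC box (GGGCGG, read as CCGCCC on the other strand) and the TATA box (TATAAA).
*KRT8*, chr12:52926420-52926719, minus strand, 1 of several annotated starts: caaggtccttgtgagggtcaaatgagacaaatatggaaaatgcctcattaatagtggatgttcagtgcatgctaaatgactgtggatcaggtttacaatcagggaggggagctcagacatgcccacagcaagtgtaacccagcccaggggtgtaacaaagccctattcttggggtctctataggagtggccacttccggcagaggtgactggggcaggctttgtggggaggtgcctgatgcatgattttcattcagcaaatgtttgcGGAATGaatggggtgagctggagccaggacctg
*ELF3*, chr1:202010337-202010636, plus strand: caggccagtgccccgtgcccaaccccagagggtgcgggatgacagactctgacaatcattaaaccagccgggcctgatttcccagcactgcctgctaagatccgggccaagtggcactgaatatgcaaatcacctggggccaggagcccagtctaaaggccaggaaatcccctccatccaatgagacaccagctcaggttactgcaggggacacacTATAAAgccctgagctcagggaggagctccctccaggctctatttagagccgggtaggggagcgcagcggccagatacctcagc
*LGALS3*, chr14:55129002-55129301, plus strand: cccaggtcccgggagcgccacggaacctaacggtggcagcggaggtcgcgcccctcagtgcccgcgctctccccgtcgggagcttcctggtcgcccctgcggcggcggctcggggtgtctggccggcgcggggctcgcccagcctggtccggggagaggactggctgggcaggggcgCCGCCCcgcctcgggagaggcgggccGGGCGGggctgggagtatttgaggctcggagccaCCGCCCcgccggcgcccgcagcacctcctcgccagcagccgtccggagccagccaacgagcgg
*ANXA1*, chr9:73151615-73151914, plus strand: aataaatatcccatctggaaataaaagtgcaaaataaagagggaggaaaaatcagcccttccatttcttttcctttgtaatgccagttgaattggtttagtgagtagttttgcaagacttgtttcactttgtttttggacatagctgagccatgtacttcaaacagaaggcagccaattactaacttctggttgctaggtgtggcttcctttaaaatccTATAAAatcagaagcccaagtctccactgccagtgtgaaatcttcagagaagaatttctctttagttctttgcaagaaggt
*ELF3* and *ANXA1* carried a TATA box, 34 and 31 bases before the start. *LGALS3*, the window richest in G and C (78.3%, against 37.7% in *ANXA1*), carried 3 GC boxes, and *KRT8* had 1 TEAD match after its start. No AP-1, CRE or GRHL letters stood in these 4 windows. Among 35116 windows of the same length, 7.71% held AP-1, 1.85% CRE, 1.73% GRHL, 45.0% the GC box and 11.5% the TATA box, and 4928 windows held TEAD. Among the 13346 windows of genes in these files the shares were 4.76% for AP-1, 3.03% for CRE, 11.4% for TEAD, 1.42% for GRHL, 65.5% for the GC box and 6.47% for the TATA box. A match is a description of letters, not of a bound site.

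Day 24 asks how COs of edited and WT lines differ once neural tissue has formed. All 7 genes were lower in the KO-labelled libraries, with differences from -2.33 (*ELF3*) to -4.44 (*EPCAM*) on the log2(score + 1) scale and a median of -3.01 where the median over all genes tested was 0.00626. Each of the 7 passed the test (limma, adjusted p under 0.05 and at least 2-fold), against 3.79% of the 9289 genes tested that were called lower and 8.01% called in either direction. *EPCAM*, *ELF3*, *LGALS3* and *ANXA1* had a score of 10 or more in fewer than 2 KO-labelled libraries and so entered the test through WT, where they were high. For these 4 a difference was built into the filter, and the count of 7 is a description. In every one of the 7, all 4 KO-labelled libraries lay below both WT libraries, which 21.8% of all genes tested also did. The study itself named *KRT19*, *LGALS3* and *ELF3* from differences in these libraries, so their direction is not independent evidence. In these bulk libraries, fewer cells of a type and less RNA per cell cannot be told apart.

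Among the keratins, *KRT8* scored 250 and 316 in the WT libraries (replicates 1 and 2), against 29 and 20 for KO#2 and 122 and 24 for KO#10. Its difference was -2.92 ± 0.67 (log2, SE, adjusted p = 0.0360). *KRT18*, its partner, scored 139 and 178 in WT, against 20 and 10 for KO#2 and 62 and 11 for KO#10, a difference of -2.95 ± 0.67 (adjusted p = 0.0349). The keratins shared one order of libraries, with KO#10 replicate 1 between WT and the other 3 KO-labelled libraries. *KRT19* scored 131 and 142 in WT, against 12 and 7 for KO#2 and 45 and 7 for KO#10, a difference of -3.30 ± 0.68 (adjusted p = 0.0301).

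*EPCAM*, which holds epithelial and pluripotent cells together, scored 40 and 85 in WT and 1 in both KO#2 libraries. KO#10 had 6 and 1. The *EPCAM* difference of -4.44 ± 0.61 (adjusted p = 0.0189) was the farthest from 0 of the 7. *ELF3*, the epithelial transcription factor, was low throughout: 10 and 16 in WT, 2 and 1 in KO#2, and 2 in both KO#10 libraries, a difference of -2.33 ± 0.48 (adjusted p = 0.0298). No KO-labelled library reached a score of 10 for *EPCAM* or *ELF3*, which therefore entered the day 24 test through WT alone, and the fold on this scale understates the change of such low genes.

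*LGALS3*, which encodes galectin-3, scored 35 in both WT libraries, against 3 and 2 for KO#2 and 10 and 2 for KO#10. It differed by -3.01 ± 0.54 (adjusted p = 0.0229). *ANXA1* scored 130 and 47 in WT, against 7 and 6 for KO#2 and 15 and 6 for KO#10, a difference of -3.16 ± 0.48 (adjusted p = 0.0196). Its WT replicates stood farther apart than those of the other 6 genes on the log2 scale, yet both lay above every KO-labelled library. Only 1 KO-labelled library, KO#10 replicate 1, reached 10 for either gene, so WT carried both past the filter.

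**Figure D1:**
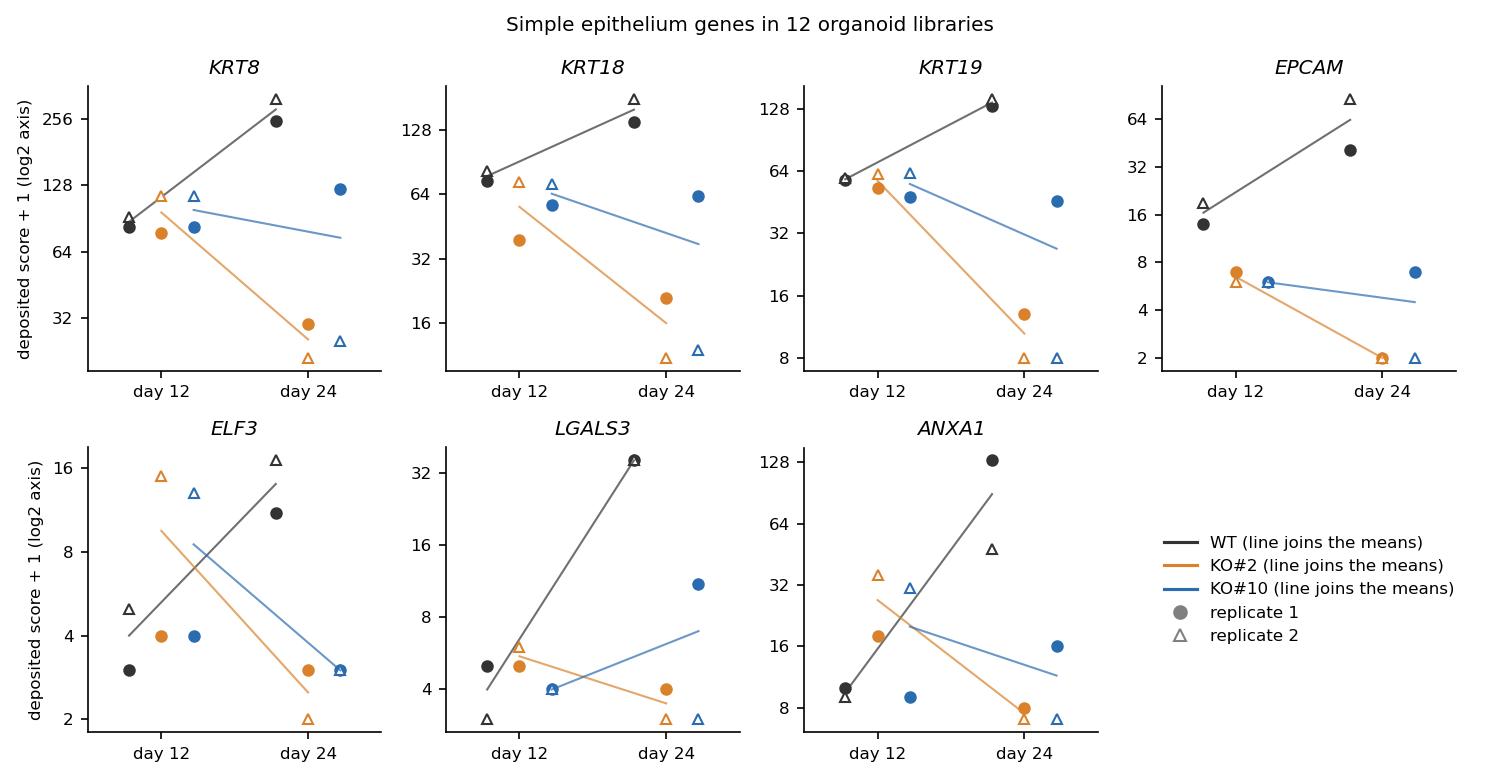
Score + 1 of each of the 7 genes (log2 axis, no unit) by line on day 12 and day 24, with filled circles for replicate 1, open triangles for replicate 2 and lines joining the group means (n = 2 libraries). At day 24 the WT libraries lie above the KO#2 and KO#10 libraries, and for all but *ELF3* KO#10 replicate 1 lies between WT and the other KO-labelled libraries (*KRT8* at 122, against 20 to 29 in the other KO-labelled libraries).

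With 2 libraries against 4 an exact two-sided permutation test cannot go below p = 0.0667, so the calls rest on the spread that limma pools over genes, and they depended on single libraries. Without KO#10 replicate 1 all 7 stayed called, with adjusted p from 0.00219 to 0.00820. None of the 7 was called without WT replicate 1 (5 tested, adjusted p 0.0746 to 0.123), WT replicate 2 (5 tested, 0.158 to 0.283), KO#2 replicate 2 (0.0665 to 0.0933) or KO#10 replicate 2 (0.0680 to 0.0918), and without KO#2 replicate 1 *EPCAM* and *ANXA1* were called (adjusted p over the 7 from 0.0423 to 0.0815). The direction was lower in each of these fits.

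Both clones were also set against the shared WT libraries in a fit with 3 groups. KO#2 was lower for all 7 genes, with log2 differences of -2.48 (*ELF3*) to -4.89 (*EPCAM*) and adjusted p from 0.0301 to 0.0468, where 4.25% of genes tested were called lower. KO#10 differed from WT by -2.19 to -3.99, and 0 of 7 were called by limma (adjusted p 0.0903 to 0.143, background 0.14% called lower). All 7 passed at an unadjusted p under 0.05 with at least a 2-fold change, as did 8.36% of all genes in either direction. In a fit of all 12 libraries in 6 groups, 6 of the 7 were called for KO#10 (adjusted p 0.00475 for *EPCAM* to 0.0409 for *KRT18*), and *ELF3* was not (0.0848). The share of all genes called in that fit was not worked out, so the count has no background. Fitting all 12 libraries raised the genes called for KO against WT at day 24 from 744 to 1117. The direct comparison of KO#2 with KO#10 called 0 of 7, also without adjustment, with differences of -0.29 to -1.14 (SE 0.55 to 0.78). No gene was called among all tested (79 at an unadjusted p with a 2-fold change), so the clones were not shown to differ. KO#10 means carried the wider spread: *KRT8* was 73.0 ± 69.3 in KO#10 and 24.5 ± 6.36 in KO#2 (SD, n = 2 each).

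At day 12, when the aggregates were younger, the keratin scores of the lines lay close together. *KRT8* scored 82 and 91 in WT, against 77 and 114 for KO#2 and 82 and 114 for KO#10. *KRT19* scored 57 and 58 in WT, against 52 and 61 for KO#2 and 47 and 62 for KO#10. WT values of both genes lay inside the range of the KO-labelled libraries, and the differences were 0.14 (adjusted p = 0.875) and -0.06 (adjusted p = 0.936). *KRT18* scored 73 and 81 in WT, against 38 and 72 for KO#2 and 56 and 71 for KO#10, so that all 4 KO-labelled libraries lay just below WT without passing the test (-0.41, adjusted p = 0.628). Of 6 members tested by limma at day 12, 0 were called and 1, *EPCAM*, passed at an unadjusted p under 0.05 with a 2-fold change. Of all genes 0.09% were called (0.0675% lower) and 1.63% passed at an unadjusted p under 0.05 with a 2-fold change.

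The difference farthest from 0 at day 12 was that of *EPCAM*. It scored 13 and 18 in WT, 6 and 5 in KO#2, and 5 in both KO#10 libraries. The difference was -1.39 ± 0.24 (adjusted p = 0.102), and with the replicate number as a block it was called (adjusted p = 0.0366, 71 genes called in all against 8 without the block). Over all settings tried its adjusted p lay between 0.0366 and 0.322. *EPCAM* and *KRT18* were the members whose KO-labelled libraries all lay below WT at day 12, as did 8.34% of all genes tested. *EPCAM* reached 10 only in WT.

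*ELF3* and *ANXA1* had the higher mean in the KO-labelled libraries at day 12, without passing the test. *ELF3* scored 2 and 4 in WT, against 3 and 14 for KO#2 and 3 and 12 for KO#10 (0.95, adjusted p = 0.671). *ANXA1* scored 9 and 8 in WT, against 17 and 35 for KO#2 and 8 and 30 for KO#10 (1.12 ± 0.49, adjusted p = 0.460). For both genes replicate 2 of each clone was the higher library, and WT overlapped with the clones. Only KO-labelled libraries reached 10 for them, and they entered the day 12 test through those. *LGALS3* scored 2 to 5 in all 6 day 12 libraries and was too low to be tested.

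**Figure D2:**
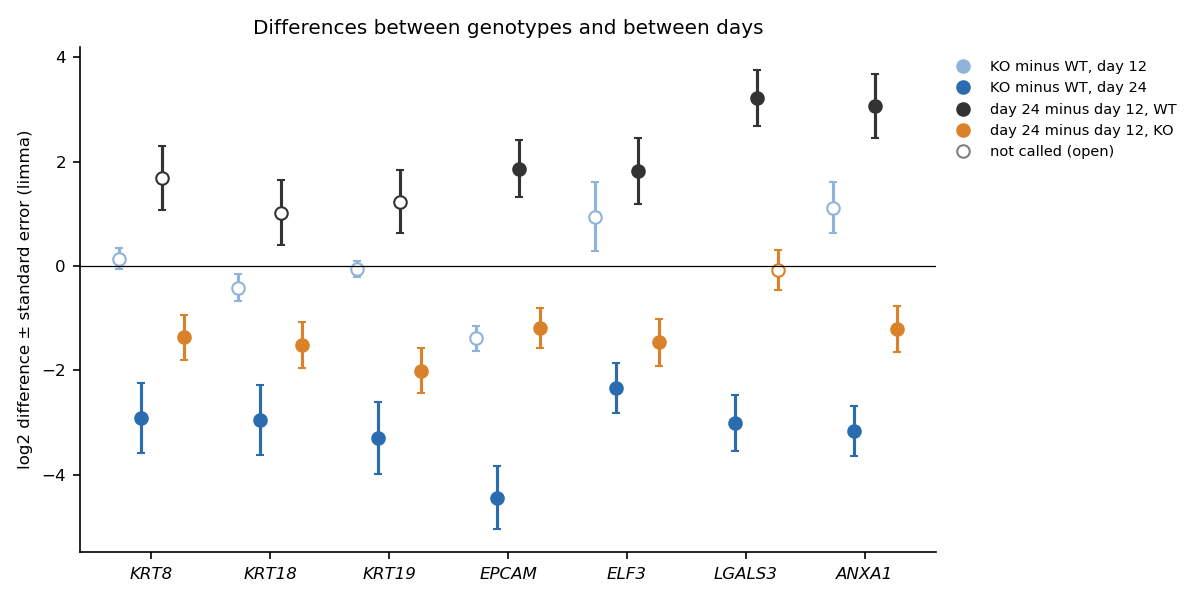
Differences of the 7 genes on the log2(score + 1) scale (points) with their SE (bars) for KO minus WT at day 12 and day 24 and for day 24 minus day 12 in WT and in KO, open where the gene was not called. Day 24 differences lie between -4.44 and -2.33, while those of day 12 lie on both sides of 0.

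Between the days the mean log2 scores of most members went up in WT and down in the KO-labelled libraries. In WT all 7 genes had higher values at day 24, and 4 of them were called higher, against 7.2% of the 9952 genes tested: *LGALS3* by 3.22 (adjusted p = 0.00179), *ANXA1* by 3.06 (0.00451), *EPCAM* by 1.86 (0.0235) and *ELF3* by 1.82 (0.0479). *LGALS3* scored 4 and 2 in WT at day 12 and entered this test through WT at day 24, where it was high. Its rise was therefore built into the filter, and its call is a description. The keratins had differences of 1.69 (*KRT8*, adjusted p = 0.0543), 1.02 (*KRT18*, 0.231) and 1.23 (*KRT19*, 0.142). In WT, 2 members were called without day 12 replicate 1, day 12 replicate 2 or day 24 replicate 2, and 7 without the KO#10 replicate 1 library of day 24, which enters through the shared spread. With the replicate number as a block within each day, a setting chosen after seeing the data, *KRT8* was called too (adjusted p = 0.0402).

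In the KO-labelled libraries 6 of the 7 were called lower at day 24 than at day 12, against 5.59% of genes. On the log2 scale the difference was -2.01 for *KRT19* (adjusted p = 0.00357), -1.52 for *KRT18* (0.0178), -1.46 for *ELF3* (0.0230), -1.37 for *KRT8* (0.0260), -1.21 for *ANXA1* (0.0448) and -1.19 for *EPCAM* (0.0282). *LGALS3* was low on both days and differed by -0.07 (adjusted p = 0.900). *EPCAM* was low too, at 5 or 6 on day 12 and 1 to 6 on day 24, and reached 10 in no KO-labelled library. KO#10 replicate 1 of day 24 did not share the fall in most of the 6. It lay above the day 12 range of the KO-labelled libraries for *KRT8* (122, range 77 to 114). It lay inside that range for *KRT18* (62, range 38 to 72), *EPCAM* (6, range 5 to 6) and *ANXA1* (15, range 8 to 35). For *KRT19* (45, range 47 to 62) and *ELF3* (2, range 3 to 14) it lay below. The number called dropped to 2 without KO#2 day 12 replicate 2, 3 without KO#10 day 12 replicate 2, 3 without KO#2 day 24 replicate 1, 1 without KO#2 day 24 replicate 2 and 2 without KO#10 day 24 replicate 2. The WT day 24 libraries had the highest mean of all 6 groups for each of the 7 genes, and their range met that of the next group only for *ELF3*, where KO#2 of day 12 came next.

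The difference between the genotypes was itself tested for a change between the days. The KO minus WT difference was lower at day 24 than at day 12 for each gene, and for 3 this change was called, against 0.854% of genes: *ANXA1* by -4.28 (adjusted p = 0.0257), *LGALS3* by -3.29 (0.0367) and *EPCAM* by -3.05 (0.0462). *KRT19* (-3.24, 0.0540), *ELF3* (-3.28, 0.0567), *KRT8* (-3.06, 0.0625) and *KRT18* (-2.54, 0.0943) missed the threshold. With the replicate block within each day 6 were called, *KRT19* (0.0329), *ELF3* (0.0160) and *KRT8* (0.0426) being added, and *KRT18* was not (0.0559). Without KO#10 day 24 replicate 1 all 7 were called, and without any other single library 0 or 1 were, so these 3 calls turned on which library was left out. *LGALS3* was tested here because WT at day 24 carried it past the filter. *EPCAM* reached 10 in no KO-labelled library of either day and entered through WT alone. The calls of both are descriptions.

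Within libraries, the keratins kept close company. Over the 12 libraries the log2 scores of *KRT18* and *KRT19* had a Pearson r of 0.980, and *KRT8* had 0.971 with each of them. The ratio of the *KRT8* to the *KRT18* score, which can be compared between libraries although not read as a ratio of transcripts, ranged from 1.12 to 2.18 while *KRT8* itself ranged from 20 to 316. The ratio of *KRT18* to *KRT19* ranged from 0.731 to 1.67. *EPCAM* followed the keratins at r of 0.886 to 0.904, and the least alike pair was *ELF3* with *LGALS3* (0.584). These 12 points share line, day and normalization, so the r values only describe the pattern.

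The genes whose profile was most like a member's were sought among 9945 non-member genes over the same 12 libraries. For *KRT18* and *KRT19* the leading gene was *FST*, the activin-binding protein follistatin (r = 0.981 and 0.982), followed by *LITAF* (0.975) and *APOE* (0.966) for *KRT18*, and by *CAVIN1* (0.980) and *APOE* (0.973) for *KRT19*. For *KRT8* they were *PACSIN2* (0.966), *CYBA* (0.963) and *FST* (0.957). *EPCAM* was nearest to *VASP* (0.975), *FBXO2* (0.961) and *CDH3* (0.960), which encodes P-cadherin. *LGALS3* was nearest to *GOLGA5* (0.990), *HNF4A* (0.978), a transcription factor of endoderm and liver, and *APLNR* (0.967). *ANXA1* was nearest to *ACTA2* (0.924), the smooth muscle actin, *TMEM88* (0.909) and *SLC16A3* (0.897). Among the genes nearest to *ELF3* were *ERRFI1* (0.917) and *NOPCHAP1* (0.893).

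Other genes of simple epithelium were lower at day 24 as well. Of 34 listed genes 15 were in the files and tested. Of these, 12 were called lower (3.79% of all genes tested were), 0 higher (4.22%) and 3, *ERBB3*, *CD24* and *CD9*, were not called (median log2 difference -3.51). Among the 12, only *SPINT2* and *LSR* scored 10 or more in at least 2 KO-labelled libraries. The others entered the test through WT, where they were high. For those a difference was built into the filter, and the count is a description. The 3 farthest from 0 were *ESRP1*, an epithelial splicing regulator (-4.71 ± 0.78, adjusted p = 0.0206), *S100A14* (-4.56 ± 0.57, adjusted p = 0.0181) and *AP1M2*, a subunit of the epithelial adaptor complex that sorts basolateral cargo (-4.15). *ESRP1* scored 18 and 50 in WT and 0 or 1 in the KO-labelled libraries. *CDH1*, E-cadherin, named here after its values were seen, scored 31 and 55 in WT and 1 to 5 in the KO-labelled libraries. At day 12, 0 of the 10 tested were called by limma (median -1.24). At an unadjusted p with a 2-fold change 6 passed, against 1.63% of all genes. Among those 6, *ESRP1*, *AP1M2*, *CLDN7* and *CD9* scored 10 or more in fewer than 2 KO-labelled libraries of day 12. They entered that test through WT, so this count is a description too.

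Among 5 tested genes of proteins that anchor keratin filaments, *DSP*, the desmoplakin that ties keratin to desmosomes (-3.003), and *PKP2*, plakophilin 2 (-2.23), were called lower and 3 were not called. Over all genes tested 3.79% were called lower. Only 1 KO-labelled library reached a score of 10 for *DSP* or *PKP2*, so both entered the test through WT. Other intermediate filament genes had a median of 0.697. Among 8 tested, 1 was called, higher (4.22% of all genes were): *NEFM*, a neurofilament subunit (1.88), which scored 7 and 12 in WT and 24 to 46 in the KO-labelled libraries. Only 1 WT library reached 10 for *NEFM*, which entered the test through the KO-labelled libraries. *VIM*, vimentin, chosen after its values were seen, scored 316 and 354 in WT and 550 to 748 in the KO-labelled libraries, a difference of 0.96 (adjusted p = 0.0196) that fell short of 2-fold.

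Relatives of the last 2 members were mixed. Of 10 annexin and S100 genes tested, 3 were called lower, *ANXA3* (-3.72), *S100A10* (-3.43) and *ANXA11* (-2.32), and 7 were not called (median -1.34). Over all genes tested 3.79% were called lower. No KO-labelled library reached a score of 10 for *ANXA3* or *ANXA11*, which entered the test through WT. Of the 3 genes tested from the galectin list, *LGALS1*, *LGALS8* and *LGALS3BP* (the last not itself a galectin), 0 were called by limma. At an unadjusted p with a 2-fold change 0 passed. *LGALS1* differed by -1.07 (adjusted p = 0.202) and *LGALS3BP*, a glycoprotein that galectin-3 binds, by 0.83 (adjusted p = 0.0759). The stratified epithelium list had only *TFAP2A* (-1.26, adjusted p = 0.0567) and *TFAP2C* (-0.64, adjusted p = 0.386) in the files, and its keratins had no row. Of these 2, 0 were called by limma and 1 passed at an unadjusted p with a 2-fold change.

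**Figure D3:**
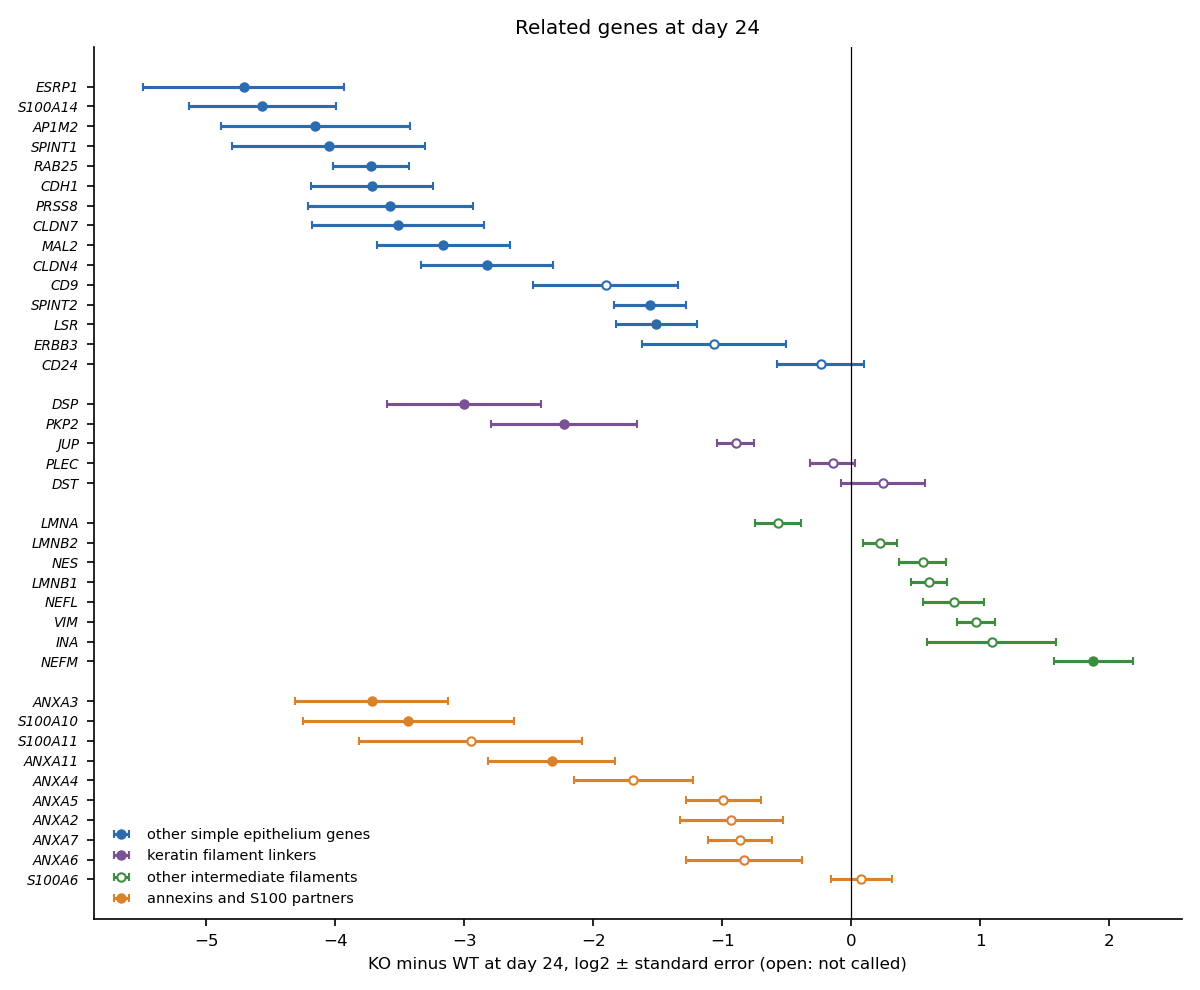
KO minus WT differences at day 24 on the log2(score + 1) scale (points) with SE (bars) for the related genes tested, by list, open where not called. All 15 other simple epithelium genes lie left of 0 (median -3.51), whereas the other intermediate filament genes spread around a median of 0.697.

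Marker lists of other tissues in which some of these 7 genes are also found differed at day 24. Endoderm and yolk sac genes summed to 7218 and 7392 in WT, 88 to 143 in 3 KO-labelled libraries and 1365 in KO#10 replicate 1. *AFP*, alpha-fetoprotein, carried most of this sum, at the highest score of 5585 in both WT libraries and 902 in KO#10 replicate 1, and was not called (adjusted p = 0.0636). Without it the sums were 1807 and 1633 in WT, 88 to 101 in the same 3 libraries and 463 in KO#10 replicate 1. Of 11 tested, 5 were called lower (3.79% of all genes were), led by *SERPINA1* (-5.29), *RBP4* (-4.84) and *APOB* (-4.53), secreted proteins of liver and yolk sac. Among those 5 only *TTR* scored 10 or more in at least 2 KO-labelled libraries. The others entered the test through WT, where they were high. In WT the full endoderm and yolk sac sum was 14 to 29 at day 12. Pluripotency genes summed to 617 and 1297 in WT and 96 to 135 in the KO-labelled libraries, and 9 of 10 tested were called lower, led by *TDGF1* (-5.64), *POU5F1* (-4.64) and *LIN28A* (-3.73). No KO-labelled library reached 10 for *TDGF1*, *POU5F1*, *L1TD1* or *ZFP42*, which entered the test through WT. *ZSCAN10* was at 0 in all 4 KO-labelled libraries. At day 12 the pluripotency sum was 1099 and 1349 in WT and 699 to 744 in the KO-labelled libraries. Then 3 of 11 tested were called lower (0.0675% of all genes were), of which *TDGF1* again entered through WT.

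Amnion and trophoblast genes summed to 168 and 196 in WT, 12 to 20 in 3 KO-labelled libraries and 84 in KO#10 replicate 1, and 1 of 4 was called (*GABRP*, -2.58). Choroid plexus genes summed to 533 and 555 in WT, 62 to 99 in 3 KO-labelled libraries and 258 in KO#10 replicate 1, with *TTR* (-3.38), which the endoderm list also holds, and *AQP1* (-2.95) called lower among 6. *TTR* carried that order: without it the choroid plexus sums were 109 and 84 in WT, 40 to 64 in 3 KO-labelled libraries and 128 in KO#10 replicate 1, which then lay above WT. Mesenchyme genes summed to 2287 and 2790 in WT, 283 to 335 in 3 KO-labelled libraries and 3394 in KO#10 replicate 1. *ACTA2* (-2.78) was called lower and *ZEB1*, a repressor of epithelial genes, higher (1.97). Neural progenitor genes summed to 602 and 282 in WT, 893 to 1195 in 3 KO-labelled libraries and 601 in KO#10 replicate 1, with 5 of 12 called higher, led by *EMX2* (2.38), *CDH2* (2.38) and *SOX1* (1.79). Neuron genes summed to 352 and 188 in WT, 1455 to 2094 in 3 KO-labelled libraries and 439 in KO#10 replicate 1, with 4 of 10 called higher, led by *MAP2* (3.60), *NCAM1* (2.06) and *ELAVL4* (1.98). Over all genes tested 3.79% were called lower and 4.22% higher. *GABRP*, *AQP1* and *ACTA2* scored 10 or more in fewer than 2 KO-labelled libraries and entered through WT. *SOX1*, *EMX2*, *NCAM1* and *ELAVL4* did so in fewer than 2 WT libraries and entered through the KO-labelled ones. The counts of these lists are descriptions.

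The summed score of the 7 members was 735 and 819 in WT, 47 to 74 in 3 KO-labelled libraries and 262 in KO#10 replicate 1, which was the highest KO-labelled library in 6 of 7 members and tied with 2 others at a score of 2 for *ELF3*. At day 12 the members summed to 240 and 262 in WT and 197 to 306 in the KO-labelled libraries. The part that endoderm, yolk sac, amnion or remaining pluripotent cells had in the members' difference was not tested.

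**Figure D4:**
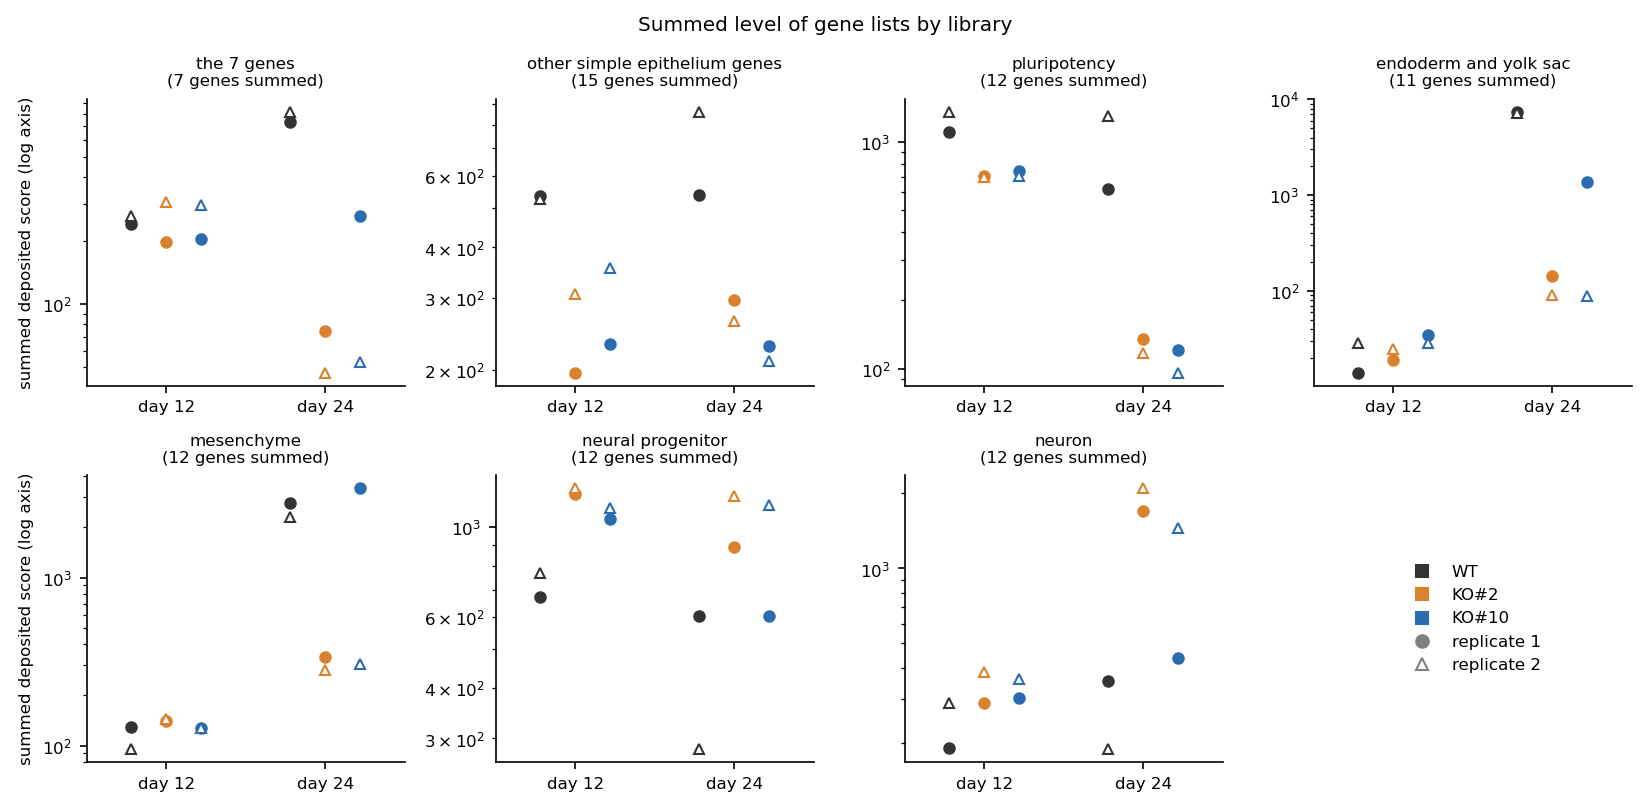
Summed score (log axis) of the 7 members and of the marker lists in each of the 12 libraries, by line and day. At day 24 the members' sum is 735 and 819 in WT, 262 in KO#10 replicate 1 and 47 to 74 in the other KO-labelled libraries, and the endoderm and yolk sac sum is placed in the same order.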

How the data were processed

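RNA-seq was done on 12 libraries of COs (WT, KO#2 and KO#10, 2 libraries each on day 12 and day 24) from total RNA after depletion of ribosomal RNA, with a strand-specific kit. The authors deposited 1 whole-number score per gene and library for 10976 genes. These scores are normalized and rounded, since all libraries share the median 17 and the highest value 5585, and their totals (473637 to 483149) give no depth. The normalization is not given in the sources used here. The submitters' processing notes name bcl2fastq, RSEM, Bowtie2 and the mouse build mm10, but all 10976 human identifiers are in GENCODE 29 and 10975 intervals overlap it (GRCh38).

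Scores were transformed as log2(score + 1), and genes that scored 10 or more in no fewer than 2 of the fitted libraries were tested with limma 3.58.1 in R 4.3.3 (lmFit, eBayes with trend, Benjamini-Hochberg over all genes tested), and called where the adjusted *p* was under 0.05 and the change 2-fold or more. Counts at an unadjusted p hold genes with an unadjusted p under 0.05 and a change of 2-fold or more. KO against WT was fitted within a day, the clones in 3 groups per day, and the days and their interaction with genotype over all 12 libraries. Replicate numbers were read as pairing libraries at day 12, where same-numbered libraries deviated together in every pair of lines (r of 0.393, 0.376 and 0.556), and not at day 24 (0.218, -0.094 and 0.328). The main fits nevertheless had no replicate block, also at day 12, so the main day 12 p-values ignore this pairing. The block was fitted as an alternative. The members and the gene lists were chosen with earlier results of these data known. Named were all members, every keratin row, from each list up to 3 called genes farthest from 0 (where none was called, the 2 of highest mean) and the 3 genes most like each member. A gene that this rule names is not reported here. Python 3.11.15 was used for the summaries. Alternatives were another pseudocount, filter, normalization or fit, the replicate block and leaving out each library.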

Additional observations from a re-analysis of the deposited data

Results flagged for a closer look

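In 4 of 14 checks of the 4 KO-labelled libraries of a day, 1 library stood apart, its gap to the nearest library, as a share of the group's range on the log2(score + 1) scale, being above Dixon's critical value. That value marks about 1 in 20 groups of continuous, normally spread values by chance. These scores are rounded, and where all libraries but 1 tie the gap share is 1 whatever the step. This held for both *EPCAM* groups and for *ELF3*, so the rate does not apply here and no excess can be read from the count. *EPCAM* at day 12 was 6 in KO#2 replicate 1 and 5 in the other 3 (gap share 1), and *ELF3* at day 24 was 1 in KO#2 replicate 2 and 2 in the others (gap share 1), a step of 1 rounded score in each case. At day 24 KO#10 replicate 1 stood apart for *EPCAM*, at 6 against 1 in the others (gap share 1), and for *ANXA1*, at 15 against 6 to 7 (gap share 0.838). That library also had the highest endoderm and yolk sac sum (1365) and mesenchyme sum (3394) among the KO-labelled libraries, and the part of either in these values was not tested.

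The KO minus WT difference changed between day 12 and day 24 by limma's interaction test for *EPCAM* (-3.05), *LGALS3* (-3.29) and *ANXA1* (-4.28). WT carried *EPCAM* and *LGALS3* past the filter, and the calls turned on which library was left out.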

How the results depend on the processing

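At day 24 all 7 members stayed called in each of the 8 settings that kept every library and the adjusted p, and none of the 101 refits over the 7 genes, left-out libraries included, turned a direction, while 29 lost the call. The number of all genes called at day 24 (744) was 1117 with all 12 libraries in 1 fit. At day 12 the number (8) was 3 without a filter, 71 with the replicate block, 16 without the trend, 1 with the clones as separate groups and 145 at an unadjusted p, and the members called (0) were 1 with the block, without the trend or at an unadjusted p. The interaction called 5 members and 315 genes with the replicate block over all 12 libraries (3 and 130 without), 6 and 368 with the block within each day, a setting chosen after seeing the data, and 7 and 964 at an unadjusted p. For the days, 2 members were called in WT with a pseudocount of 0.1. KO#2 against WT at day 24 called 4 members with the replicate block, and KO#10 against WT called 6 in a fit of 6 groups over 12 libraries. The share of all genes called was not worked out for either. The block, or pairing, moved no other count of members called by over 1.5 times.

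Leaving out 1 library at a time gave 2 to 1346 genes and 0 to 7 members called at day 24, 1 to 4 genes and 0 members at day 12, 11 to 916 genes and 0 to 7 members for the interaction, 810 to 1572 genes and 2 to 7 members for the days in WT, and 1011 to 1209 genes and 1 to 6 members for the days in KO. Where 1 WT library was left, it was assumed to vary like the other groups. The direction turned for *KRT19* at day 12 without KO#10 replicate 1 (0.016, range -0.11 to 0.016) and for *LGALS3* between the days in KO without KO#2 day 12 replicate 2 (0.05), KO#2 day 24 replicate 2 or KO#10 day 24 replicate 2 (0.12 each, range -0.50 to 0.12). The cause was not tested. Depth is unknown, so it cannot be said what it limits.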
